A study of Mus musculus with 6 samples.

Results

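Replication-dependent histone genes encode the bulk of the histone protein that packs new DNA during S phase. The set described here held every gene of the mRNA expression table whose symbol began with Hist1h, Hist2h, Hist3h or Hist4h, taken once per gene identifier. This gave 67 genes of the 21954 in the table, and 66 of the 67 were above 0 in at least 1 library. By histone type there were 6 genes for the linker histone H1, 18 for H2A, 18 for H2B, 12 for H3 and 13 for H4. By genomic cluster, 54 lay in Hist1 on chromosome 13, 10 in Hist2 on chromosome 3, 2 in Hist3 on chromosome 11 and 1 in Hist4 on chromosome 6. In mouse build GRCm38 the Hist1 genes spanned chr13:21715763-23934851, the Hist2 genes chr3:96219865-96270132, the Hist3 genes chr11:58948920-58956830 and the single Hist4 gene chr6:136801553-136804415.

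The study measured RNA in whole thymus from wild-type C57BL mice aged 5 weeks. The control group was 3 mice with no radiation, and the irradiated group was 3 mice given 6 Gy of X-rays and taken 24 h later, so that strain, age, tissue and RNA preparation were shared by both groups. The labels give the RNA as polyadenylated. The deposited values are FPKM, fragment numbers scaled by transcript length and by library size, which allow levels to be compared between genes of different length.

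Core histones H2A, H2B, H3 and H4 form the octamer that DNA wraps around, and H1 binds the DNA between octamers. Their replication-dependent genes are mostly single-exon, are transcribed as cells enter S phase, and give mRNAs that typically end in a short stem-loop in place of a poly(A) tail. The stem-loop-binding protein SLBP holds that structure during processing, translation and decay, and the mRNAs are degraded when DNA synthesis stops. In the young thymus most dividing cells are immature thymocytes, a cell type known for its sensitivity to ionizing radiation. A library made from polyadenylated RNA takes in only those histone transcripts that carry a tail or are carried over. If the label holds, the levels below are levels in such libraries and not of total histone mRNA.

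The 3′ stem-loop is the feature that sets these mRNAs apart, and its letters are shown for 9 genes that recur below. The transcript models of GENCODE M21 were searched on the sense strand for 16 letters made of GG, 2 bases, CTT, 1 base, T, 1 base, AG, 2 bases and CC, with complementary arms. They held the letters in 46 of the 67 genes, against 17 of 58725 other protein-coding transcripts (0.0289%). Each line gives 26 bases, with the stem-loop in capitals and 5 flanking bases on each side.
Hist1h3b: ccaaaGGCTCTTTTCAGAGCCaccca
Hist1h2ao: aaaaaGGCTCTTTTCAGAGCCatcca
Hist3h2ba: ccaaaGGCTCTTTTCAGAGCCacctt
Hist1h1c: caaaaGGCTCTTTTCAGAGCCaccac
Hist1h3g: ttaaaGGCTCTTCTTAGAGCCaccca
Hist2h2ac: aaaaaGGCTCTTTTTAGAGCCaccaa
Hist1h4f: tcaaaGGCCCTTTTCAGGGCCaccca
Hist1h4b: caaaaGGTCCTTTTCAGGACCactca
Hist1h4a: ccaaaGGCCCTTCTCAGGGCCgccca

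The commonest form, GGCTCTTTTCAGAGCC, stood in 26 genes, and none of them was an H4 gene. Of the remaining forms without an H4 gene, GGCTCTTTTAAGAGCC was found in 6 genes, and Hist1h3g and Hist2h2ac each had a form of their own. The H4 genes had other stems: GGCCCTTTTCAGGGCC in 7 genes, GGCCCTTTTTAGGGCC in Hist1h4i and Hist2h4, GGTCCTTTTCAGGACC in Hist1h4b and Hist1h4j, and a single form in Hist1h4a. In the other 21 genes the letters were not found in the model, 1 of them an H4 gene. Many of these models end at or near the stop codon. The longest models of Hist1h2bc, Hist1h2bq, Hist1h2br and Hist2h2be, however, hold 778 to 2242 bases outside the coding sequence. That number takes in both ends of the model and the stop codon. A missing match says only that these letters are not in the model.

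Upstream letters are shown for 2 head-to-head pairs of an H2A and an H2B gene and for 2 H4 genes. The pairs were chosen because their members differed most in how far they fell, and the H4 genes because 1 has the H4 element and the other lacks it. They come from RefSeq promoters on GRCm38.p6 and run 5′ to 3′ on the strand of the named gene, up to the base before its RefSeq start. Capitals mark the TATA box letters TATAAA, the CCAAT box (CCAAT, or ATTGG on the other strand), the octamer ATTTGCAT (ATGCAAAT on the other strand) and GGTCCG. They are marked wherever they stand. In Hist1h4f TATAAA opens the line, 250 bases before the start, far from the usual place of a TATA box. In Hist1h4a TATAAA lies after the RefSeq start and so is not printed. The first line lies between the starts of Hist1h2ac and Hist1h2bc (chr13:23683960-23684198, minus strand) and the second between those of Hist2h2ac and Hist2h2be (chr3:96220881-96221118, minus strand). The other two lines are the 250 bases before Hist1h4f (chr13:23551669-23551918, minus strand) and Hist1h4a (chr13:23761250-23761499, minus strand).
Hist1h2ac: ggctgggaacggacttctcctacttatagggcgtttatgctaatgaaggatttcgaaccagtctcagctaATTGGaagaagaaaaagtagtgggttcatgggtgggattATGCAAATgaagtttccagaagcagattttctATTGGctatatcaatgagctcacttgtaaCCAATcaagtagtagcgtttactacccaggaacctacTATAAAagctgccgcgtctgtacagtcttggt
Hist2h2ac: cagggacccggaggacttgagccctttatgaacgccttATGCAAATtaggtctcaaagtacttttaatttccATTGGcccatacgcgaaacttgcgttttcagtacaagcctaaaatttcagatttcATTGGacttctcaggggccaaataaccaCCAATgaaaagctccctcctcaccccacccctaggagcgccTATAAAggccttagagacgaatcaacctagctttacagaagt
Hist1h4f: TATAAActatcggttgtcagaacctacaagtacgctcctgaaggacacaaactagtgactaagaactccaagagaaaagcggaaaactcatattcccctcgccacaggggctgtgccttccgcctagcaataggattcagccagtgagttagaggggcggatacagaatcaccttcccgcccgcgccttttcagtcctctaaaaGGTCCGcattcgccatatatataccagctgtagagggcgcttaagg
Hist1h4a: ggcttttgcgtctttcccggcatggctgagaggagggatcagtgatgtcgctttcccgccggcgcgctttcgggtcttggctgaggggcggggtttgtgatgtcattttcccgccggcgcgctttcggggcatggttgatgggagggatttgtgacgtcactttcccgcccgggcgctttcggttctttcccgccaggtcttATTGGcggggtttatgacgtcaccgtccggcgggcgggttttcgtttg

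Promoters of 300 bases, 250 before and 50 after the start, were found for 62 of the 67 genes. Counted on both strands, with each motif counted on its own so that different motifs may overlap, CCAAT was in 85.5% of the 62 and in 37.4% of all 32851 RefSeq promoters of that length. TATAAA, wherever in the 300 bases it stood, was in 56.5% of the 62 against 13.6% of all. CCAAT was found in every H1, H2A, H2B and H3 promoter searched but in only 3 of 12 H4 promoters. The octamer ATTTGCAT, known from H2B promoters as the site of Oct proteins, was in 7 of 18 H2A and 6 of 16 H2B promoters and in none of the H1, H3 and H4 promoters (1.74% of all promoters). Because head-to-head H2A and H2B genes share upstream DNA, the same site can be counted for both, as in Hist1h2ae and Hist1h2bg. GGTCCG, part of a known H4 element, was in 11 of 12 H4 promoters (8.25% of all promoters), and the exception was Hist1h4a. AAACACA, the H1 box, was in 5 of 6 H1 promoters (7.18% of all promoters). A match describes the letters only, and binding was not measured.

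After irradiation the level of nearly every histone gene fell, and none rose. The genes were fitted together with all other genes by limma on log2(FPKM + 0.1), with p-values adjusted by Benjamini-Hochberg over the 14001 genes that averaged at least 0.5 FPKM. Of the 67 histone genes 66 were tested, 65 fell and 0 rose at an adjusted p below 0.05. Across all tested genes 20.9% fell and 42.4% rose, 2920 and 5933 genes. Other scalings moved that balance, to 4403 lower and 3501 higher with quantile normalization and to 4558 lower and 4655 higher with median-ratio scaling. The median log2 fold change of the 66 was -3.97, against 0.40 over all tested genes, and a fold change on this scale understates the change of low genes. In 65 of the 66 the lowest control value was above the highest irradiated value, a pattern found in 24.7% of all tested genes. A log2 fold change of -3 or lower was reached by 54 histone genes and by 1.32% of all tested genes.

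Histone genes crowded the lower end of the whole table. Ordered by log2 fold change, they made up 22 of the 50 most reduced genes, 42 of the 100 most reduced, 55 of the 200 and 64 of the 500. The share left, the mean irradiated FPKM as a percentage of the mean control FPKM, ran from 2.92% to 44.1%. It was under 5% in 14 genes, from 5% to 10% in 32, from 10% to 20% in 17 and at least 20% in 3. Adjusted p-values of the 65 called genes (limma) ran from 7.24e-05 to 0.00868. In the authors' deposited table, made with DESeq2, all 66 genes with a value were lower at an adjusted p below 0.05, with a median log2 fold change of -3.957 in the authors' deposited table.

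The filter on low values bears on 3 genes. Hist1h2aa, an H2A gene known from the testis, was listed at 0 in all 6 libraries and was not tested. Hist1h1t, the testis-specific linker histone, passed just inside the filter at a mean of 0.649 FPKM over the 6 libraries. It read 1.15, 1.18 and 0.965 FPKM in the controls and 0.356, 0.113 and 0.134 FPKM after irradiation. Hist1h2ba, an H2B gene also known from the testis, read 2.30, 5.21 and 4.56 FPKM in the controls and 0.507, 0.172 and 0.0992 FPKM after irradiation. Both passed through the control group alone, so that any call on them had to be lower. The 8 testis markers examined were all below the filter, and Prm2 and Tnp1 were at 0 in all 6 libraries.

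**Figure D1:**
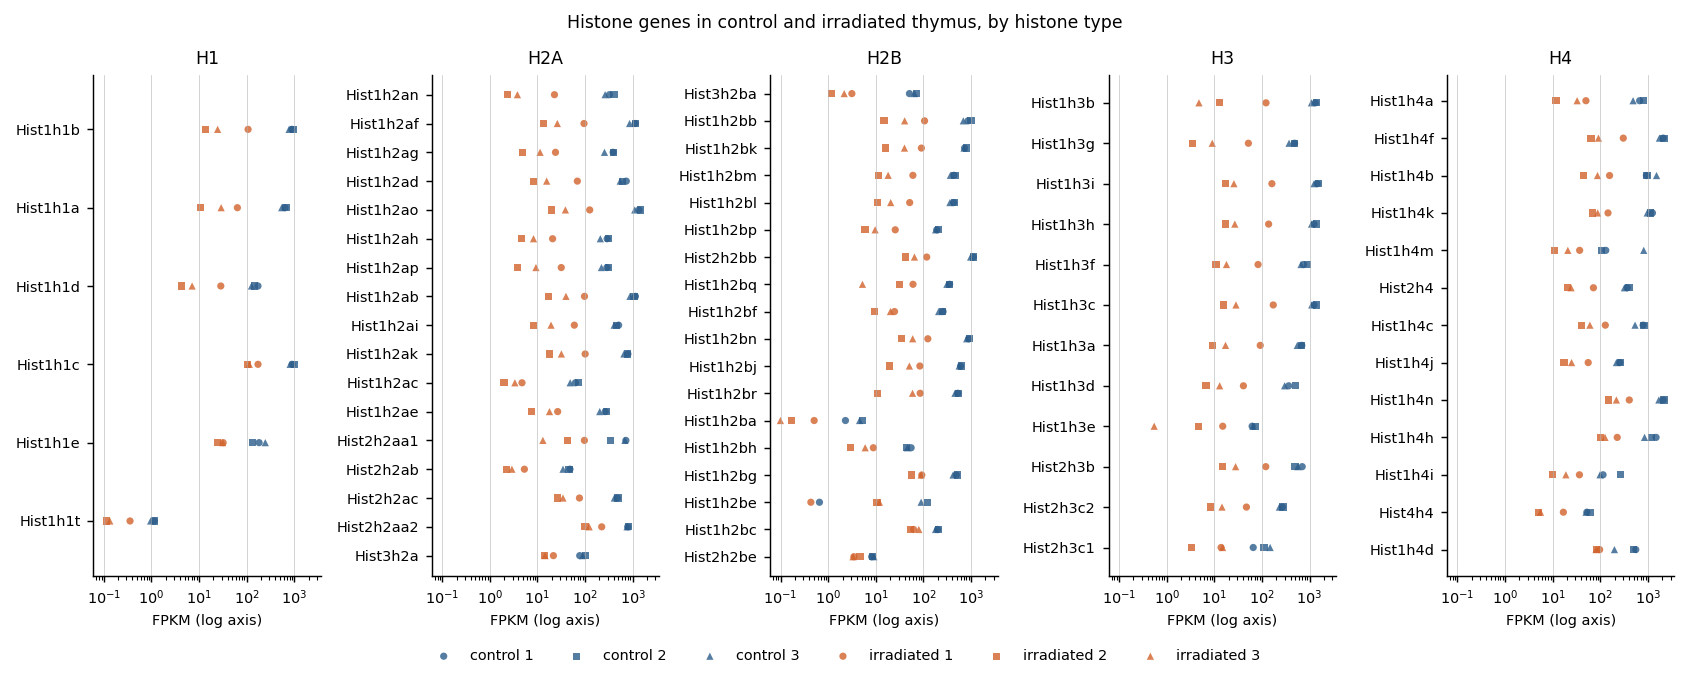
FPKM of the 66 histone genes above 0, one row per gene and one panel per histone type, on a log axis; blue marks are the 3 control and orange marks the 3 irradiated libraries, with a shape for each replicate. In 65 rows the blue marks all lie to the right of the orange ones, and in the row of Hist1h2be replicate 1 of each group lies far to the left.

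In the control thymus the histone genes were among the most abundant transcripts of the library. Such levels are high for mRNAs that typically lack a poly(A) tail, in libraries labelled as polyadenylated RNA. Whether the values come from tailed or from carried-over mRNA was not tested, and the label itself was not checked. Summed over the set, the controls held 38801, 39889 and 33564 FPKM. The irradiated libraries, by replicate number, held 5296, 1536 and 2279 FPKM. These sums were 14.6%, 14.5% and 12.4% of the FPKM of the whole table in the controls and 2.12%, 0.485% and 0.745% after irradiation. The groups did not overlap, and irradiated replicate 1 kept more than the other two. Of the 50 genes with the highest FPKM, the controls had 31, 29 and 30 histone genes and the irradiated libraries had 1, 0 and 0. The mean sum fell from 37418 ± 3382 FPKM (SD, n = 3) to 3037 ± 1992 FPKM (SD, n = 3), which left 8.12% of the control level. Without irradiated replicate 1 the share left was 5.10%. In bulk thymus, fewer dividing cells and less histone mRNA per cell cannot be told apart.

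**Figure D2:**
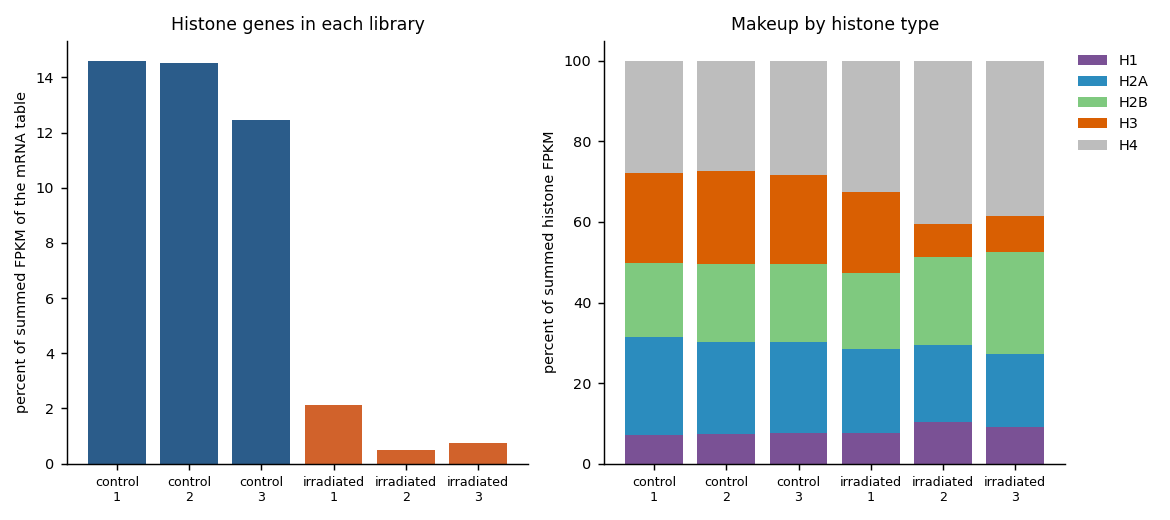
Left, the summed FPKM of the histone genes as a percentage of the summed FPKM of the mRNA table in each library. Right, the percentage of that histone sum from each histone type. The controls stand at 12.4% to 14.6% and the irradiated libraries at 0.485% to 2.12%, and H3 takes a smaller part of the sum in irradiated replicates 2 and 3.

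The 3 irradiated mice were not alike. Against the control mean, the median log2 difference over the 66 genes was -2.84 in irradiated replicate 1, -4.93 in replicate 2 and -4.26 in replicate 3. Replicate 1 had the highest irradiated value in 62 of the 66 genes, and replicate 2 had the lowest in 58. With irradiated replicate 1 left out, the median log2 fold change was -4.54, and with replicate 2 left out it was -3.54. No gene lost its call when any 1 library was left out. In a list of 29 S phase genes the medians were -1.63, -2.43 and -1.70, with replicates 1 and 3 close together.

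By histone type, H3 genes had the lowest fold changes, with a median log2 fold change of -4.77, followed by H2A at -4.42, H2B at -3.80, H4 at -3.38 and H1 at -3.37. The places of H1 and H4 depended on the settings: H1 was at -3.92, below H2B, when Hist1h1t was left out by a filter of 1 FPKM in 3 libraries, and with quantile normalization H1 was at -3.78 and H4 at -3.15. By summed FPKM the share left was 5.47% for H3, 6.91% for H2A, 8.97% for H2B, 9.38% for H1 and 10.4% for H4. Without irradiated replicate 1 these shares were 1.93%, 4.05%, 6.43%, 6.66% and 7.23% in the same order. That order also held without replicate 2 and without replicate 3. The difference between types was not tested, because genes of 1 type share sequence and libraries and are not replicates.

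The makeup of the remaining histone RNA changed with it. H3 genes held 22.3%, 23.3% and 22.2% of the summed histone FPKM before irradiation and 20.04%, 8.13% and 8.85% after it. Irradiated replicate 1 was near the controls, and the other two were far lower. For H4 the parts were 27.8%, 27.2% and 28.3% in the controls and 32.6%, 40.5% and 38.5% after irradiation, with no overlap. H2A made up 24.2%, 22.9% and 22.8% of the sum before and 20.8%, 19.2% and 18.1% after, again with no overlap. H1 held 7.20%, 7.31% and 7.501% before and 7.67%, 10.4% and 9.05% after, with no overlap but a narrow gap to replicate 1. H2B held 18.5%, 19.3% and 19.2% before and 18.8%, 21.8% and 25.5% after, and here the groups overlapped.

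**Figure D3:**
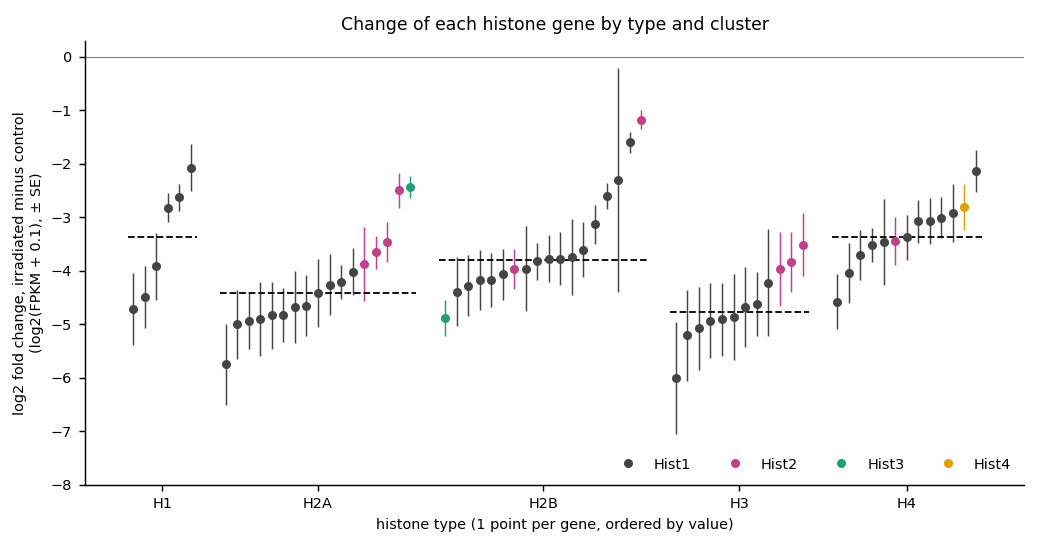
Log2 fold change of each tested histone gene on the log2(FPKM + 0.1) scale with its standard error from limma, grouped by histone type, ordered within the type and coloured by cluster; dashed lines are the medians of the types. Every point lies below 0, and the medians of H3 (-4.77) and H2A (-4.42) are the lowest of the 5 types.

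Linker histone H1 binds DNA at its entry to and exit from the nucleosome, and its somatic subtypes differ in when they are made. All 6 H1 genes fell. Hist1h1b, which encodes subtype H1.5, read 891, 958 and 779 FPKM in the controls and 107, 13.7 and 24.6 FPKM after irradiation. Its log2 fold change was -4.72 ± 0.68 (SE), with an adjusted p of 0.00103 in limma. Hist1h1a, which encodes H1.1, read 642, 672 and 545 FPKM before and 64.0, 10.9 and 29.2 FPKM after. Its log2 fold change was -4.49 ± 0.57 (SE), and in both genes irradiated replicate 1 was the highest of the irradiated values and still below every control.

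Hist1h1c, which encodes H1.2, was as abundant in the controls and fell less. It read 902, 1007 and 820 FPKM in the controls and 173, 106 and 114 FPKM after irradiation, a log2 fold change of -2.83 ± 0.27 (SE). The irradiated values were closer together than those of Hist1h1b. Hist1h1d and Hist1h1e, for H1.3 and H1.4, had log2 fold changes of -3.92 and -2.63. Hist1h1e shares same-strand exon bases with a model of Hist1h2be, so reads there cannot be told apart. Hist1h1t, at its low level, changed by -2.07.

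H2A and H2B pair as dimers on the outside of the octamer. All 17 tested H2A genes fell, with log2 fold changes from -5.75 to -2.43. The 12 tested in Hist1 had a median of -4.75 and a narrow span, from -5.75 to -4.02. The 3 most abundant, Hist1h2ao, Hist1h2af and Hist1h2ab, are described next.

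Hist1h2ao read 1358, 1467 and 1106 FPKM in the controls and 125, 19.4 and 38.7 FPKM after irradiation, a log2 fold change of -4.84 ± 0.62 (SE). For Hist1h2af the values were 1129, 1163 and 862 FPKM before and 95.1, 13.6 and 26.2 FPKM after, a log2 fold change of -5.01 ± 0.65 (SE). Hist1h2ab stood at 1142, 1072 and 878 FPKM before and 97.5, 17.1 and 39.7 FPKM after, a log2 fold change of -4.66 ± 0.57 (SE). All 3 genes showed the same order of irradiated libraries, with replicate 1 highest and replicate 2 lowest. Hist1h2an was the most reduced H2A gene. It fell from 325, 404 and 264 FPKM to 22.8, 2.38 and 3.80 FPKM, 34.3-fold lower by group means, with a log2 fold change of -5.75 ± 0.75 (SE) and an adjusted p of 0.000677 in limma.

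H2A genes outside Hist1 kept more of their level. The 4 H2A genes of Hist2 had a median log2 fold change of -3.56. Hist2h2ac read 475, 491 and 412 FPKM in the controls and 76.3, 26.8 and 34.4 FPKM after irradiation, a log2 fold change of -3.47 ± 0.38 (SE). Hist2h2ab was lower in level, at 48.2, 46.3 and 34.5 FPKM before and 5.33, 2.28 and 2.91 FPKM after, a log2 fold change of -3.65 ± 0.31 (SE). In both, the groups did not overlap.

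Hist2h2aa1 and Hist2h2aa2 are near-identical copies, and every 50-base stretch of the Hist2h2aa2 model is also found in another histone model. Hist2h2aa1 read 720, 347 and 687 FPKM in the controls and 96.97, 42.9 and 13.03 FPKM after irradiation (log2 fold change -3.87 ± 0.69, SE). Hist2h2aa2 read 786, 817 and 762 FPKM before and 224, 99.3 and 122 FPKM after (log2 fold change -2.50 ± 0.33, SE). How fragments were divided between the copies is not given, so the difference between the 2 copies is uncertain. Hist3h2a, the H2A gene of the Hist3 cluster, read 77.3, 101 and 89.2 FPKM in the controls and 21.7, 14.1 and 14.5 FPKM after irradiation. Its log2 fold change, -2.43 ± 0.21 (SE), was the closest to 0 of the H2A genes, and the groups were well separated. By share left it was level with Hist2h2aa2 (18.75% and 18.82%).

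Of the 18 H2B genes 17 fell, and this type had the widest spread, from -4.88 to -1.18. Hist2h2bb, the most abundant, read 1119, 1120 and 978 FPKM in the controls and 117, 41.5 and 64.7 FPKM after irradiation, a log2 fold change of -3.97 ± 0.38 (SE). Hist1h2bn read 889, 917 and 808 FPKM before and 124, 34.7 and 59.4 FPKM after, a log2 fold change of -3.78 ± 0.44 (SE). Hist1h2bb read 861, 995 and 687 FPKM before and 105, 14.9 and 40.2 FPKM after, a log2 fold change of -4.39 ± 0.64 (SE). In all 3 the lowest control value was far above the highest irradiated one.

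The most reduced H2B gene lay in the Hist3 cluster, next to Hist3h2a. Hist3h2ba read 50.8, 72.5 and 64.6 FPKM in the controls and 3.14, 1.18 and 2.16 FPKM after irradiation. It was 29.0-fold lower, with a log2 fold change of -4.88 ± 0.34 (SE) and an adjusted p of 7.24e-05 (limma), the smallest of all histone genes. Its model shared no 50-base stretch with the other 66 genes, but 22.1% of its stretches are also in the pseudogene Hist3h2bb-ps, so its values can depend on how fragments matching both were counted.

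At the other end were 2 H2B genes known to give polyadenylated mRNA as well. Hist2h2be read only 8.20, 8.67 and 9.11 FPKM in the controls and 3.46, 4.67 and 3.32 FPKM after irradiation. It was 2.27-fold lower, with a log2 fold change of -1.18 ± 0.18 (SE) and an adjusted p of 0.00135 in limma, and it was the least reduced of the 66. It was also the only gene in which irradiated replicate 2 was higher than both others. Hist1h2bc, named here for its value, read 198, 205 and 180 FPKM in the controls and 62.2, 52.5 and 79.9 FPKM after irradiation, a log2 fold change of -1.60 ± 0.19 (SE). The groups did not overlap in either gene. Neither model held the stem-loop letters, and they held 2242 and 778 bases outside the coding sequence, respectively. The longest models of Hist1h2bq and Hist1h2br also lacked the letters and held 852 and 878 such bases. Their log2 fold changes were -3.97 and -3.74, near the H2B median of -3.80, so the trait did not go with a small fall in each gene.

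Hist1h2be was the single tested gene without a call. It read 0.655, 122 and 89.3 FPKM in the controls and 0.432, 10.5 and 11.9 FPKM after irradiation. Replicate 1 of each group was near 0, and without those libraries the irradiated values were below the controls. The log2 fold change was -2.31 ± 2.10 (SE), with an adjusted p of 0.361 in limma. Without replicate 1 of both groups, a setting chosen after the values were seen, it was -3.21 with an adjusted p of 0.000153. Without control replicate 1 alone it was -4.68 with an adjusted p of 0.032. The authors' deposited table gives -3.45 with an adjusted p of 0.0109 for Hist1h2be.

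H3 and H4 form the tetramer at the centre of the nucleosome. All 12 H3 genes fell, each by at least 3.51 on the log2 scale. Hist1h3b had the lowest log2 fold change of all histone genes, while by share left it came after Hist1h2an and Hist3h2ba (3.64% against 2.92% and 3.45%). It read 1330, 1415 and 1099 FPKM in the controls and 122, 12.9 and 4.77 FPKM after irradiation, with a log2 fold change of -6.01 ± 1.05 (SE) and an adjusted p of 0.00226 in limma. The irradiated values differed more from each other than in most members, and all lay far below the controls.

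Hist1h3i had the highest level of its type, 1448, 1542 and 1244 FPKM in the controls and 162, 17.0 and 25.8 FPKM after irradiation (log2 fold change -5.08 ± 0.77, SE). Hist1h3c read 1242, 1428 and 1114 FPKM before and 173, 15.9 and 28.5 FPKM after (log2 fold change -4.87 ± 0.80, SE). Hist1h3g, the gene with a stem-loop form of its own, read 485, 492 and 372 FPKM before and 52.0, 3.55 and 9.08 FPKM after (log2 fold change -5.21 ± 0.86, SE). In each of these 3 genes irradiated replicate 1 was well above the other irradiated values, and the groups did not overlap.

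The 9 H3 genes of Hist1 had a median log2 fold change of -4.91 and the 3 of Hist2 a median of -3.84. Hist2h3b read 702, 494 and 569 FPKM in the controls and 121, 14.9 and 28.0 FPKM after irradiation (log2 fold change -3.97 ± 0.69, SE). Hist2h3c2 read 269, 276 and 233 FPKM before and 47.4, 8.40 and 14.5 FPKM after (log2 fold change -3.84 ± 0.57, SE). Hist2h3c1 read 65.8, 110 and 149 FPKM before and 13.9, 3.35 and 15.0 FPKM after (log2 fold change -3.51 ± 0.59, SE). The last gene lacks the high replicate 1 of the others, and all of its 50-base stretches are also found in other gene models, among them Gm20634, which overlaps it on the same strand.

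All 13 H4 genes fell, with log2 fold changes from -4.58 to -2.13, and as a group they kept the most of their summed FPKM. Hist1h4n read 2094, 2180 and 1695 FPKM in the controls and 406, 146 and 217 FPKM after irradiation, a log2 fold change of -3.08 ± 0.43 (SE). It was close in control level to Hist1h4f, at 2094, 2172 and 1741 FPKM before and 304, 63.6 and 91.4 FPKM after, a log2 fold change of -4.04 ± 0.57 (SE). Hist1h4h read 1482, 1198 and 849 FPKM before and 226, 101 and 125 FPKM after, a log2 fold change of -3.01 ± 0.38 (SE). In each the highest irradiated value was below the lowest control.

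Hist1h4a, the H4 gene without GGTCCG in its promoter, was the most reduced of its type. It read 669, 812 and 488 FPKM in the controls and 49.9, 11.7 and 32.6 FPKM after irradiation, a log2 fold change of -4.58 ± 0.51 (SE) and an adjusted p of 0.000353 in limma. With 1 such gene, nothing can be read from the absence of the letters. Hist2h4 read 368, 401 and 321 FPKM before and 71.7, 20.7 and 24.3 FPKM after (log2 fold change -3.45 ± 0.45, SE). Hist4h4, alone in its cluster, read 52.1, 62.7 and 50.1 FPKM before and 16.8, 4.94 and 5.55 FPKM after (log2 fold change -2.81 ± 0.44, SE).

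By cluster, the median log2 fold change was -4.17 over the 53 tested genes of Hist1, -3.58 over the 10 of Hist2, -3.65 over the 2 of Hist3 and -2.81 for the gene of Hist4. The summed level left was 7.76% in Hist1, 10.6% in Hist2, 12.4% in Hist3 and 16.5% in Hist4. Leaving out irradiated replicate 1 gave 4.83%, 6.87%, 10.5% and 9.54%, and the difference between clusters was not tested. Hist1 supplied 87.0% to 89.1% of the summed histone FPKM in the controls and 81.4% to 84.9% after irradiation. These ranges did not overlap. For H2B the clusters ran the other way in part, since Hist2h2bb and Hist3h2ba were below the H2B median and Hist2h2be was the least reduced.

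H2A and H2B genes often lie head to head and share the DNA between their starts. There were 12 such pairs with starts within 1000 bases, and in 11 both genes were tested. In all 11 the H2B gene was less reduced than its H2A partner. The median difference was 1.07 on the log2 scale and the largest 2.62. The difference was not tested, and in 2 pairs it was under 0.5. Over all tested genes of Hist1, H2A ran from -5.75 to -4.02 and H2B from -4.39 to -1.60. The order is therefore not particular to the pairs. In all 11 pairs the exons of the H2A gene overlap another gene model on the opposite strand, and in 0 of 11 do those of the H2B gene; the part of this in the difference was not tested.

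The 2 widest pairs are those whose shared DNA is printed above. Hist1h2ac fell by 4.22 and its partner Hist1h2bc, 251 bases away, by 1.60 on the log2 scale. Hist1h2ac read 62.7, 73.3 and 48.8 FPKM in the controls and 4.74, 1.98 and 3.36 FPKM after irradiation. Hist2h2ac fell by 3.47 and its partner Hist2h2be, 239 bases away, by 1.18. Each printed interval holds the octamer 1 time, CCAAT 3 times over both strands and TATAAA 1 time, on the strand of the H2A gene.

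**Figure D4:**
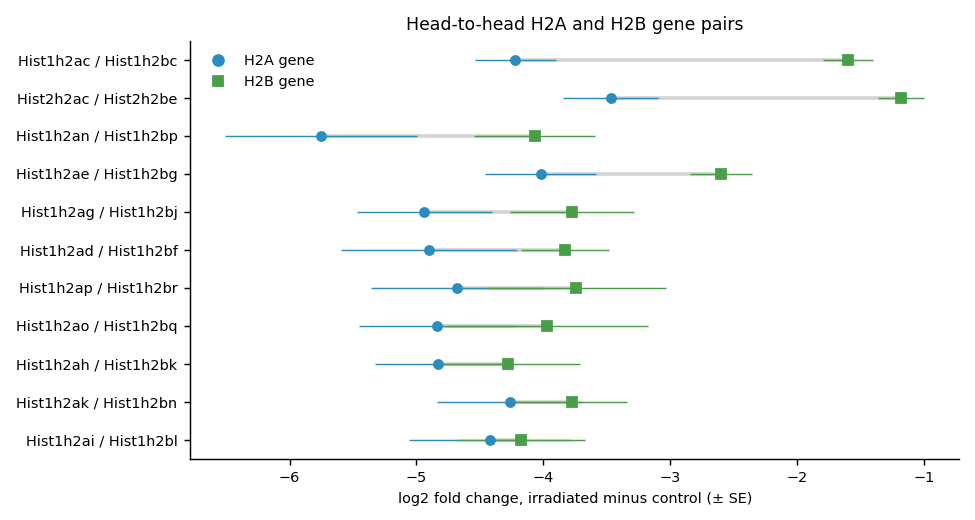
Log2 fold change on the log2(FPKM + 0.1) scale, with its standard error from limma, of the H2A gene (blue circle) and the H2B gene (green square) in the 11 head-to-head pairs with both genes tested, ordered by the gap. The green mark is to the right of the blue one in every pair, by 2.62 in the widest.

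The gene models differ in where they end, which matters in libraries of polyadenylated RNA. In 23 genes the model ended within 100 bases after the stem-loop, and in 23 it ran over 100 bases past it. The median log2 fold change was -4.18 in the first set, -3.38 in the second and -4.07 over the 20 tested genes in which the letters were not found. All 23 of the first set fell, 22 of 23 of the second and all 20 of the last. The sets differ in histone type, and the part of the model end in the difference was not tested.

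Histone genes are near copies of each other, and how the authors treated fragments that match several genes is not given. The share of each model's 50-base stretches found in another histone model was under 25% in 20 genes, from 25% to 75% in 29 and over 75% in 18. Of the 19 tested genes in the first set 18 fell, and all of the others fell. The medians were -3.38, -4.04 and -4.30. Hist1h2bq and Hist1h2br, which share almost all of their sequence, split their values unevenly after irradiation. Hist1h2bq read 60.3, 31.1 and 5.23 FPKM and Hist1h2br read 85.3, 10.6 and 58.9 FPKM in irradiated replicates 1, 2 and 3. Hist1h4m read 130, 107 and 816 FPKM in the controls, so that 1 library held most of its control mean. Values of single copies are therefore uncertain. Exons of 24 histone genes overlap exons of another gene model, 21 of them on the opposite strand, and strand use in counting is not given. Same-strand overlaps, alone or beside an opposite one, involve Hist1h1e, Hist1h2ac, Hist1h2be, Hist2h2aa1, Hist2h2bb, Hist2h3c1 and Hist3h2a. Strand use cannot tell reads in those bases apart.

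The genes that make, trim and turn over histone mRNA also fell, by less. Of 22 such genes 15 fell and 0 rose, against 20.9% and 42.4% of all tested genes, and the median log2 fold change was -0.89. SLBP-encoding Slbp read 40.6, 38.7 and 29.96 FPKM in the controls and 13.4, 9.43 and 10.2 FPKM after irradiation (log2 fold change -1.72 ± 0.19, SE). Eri1, the exonuclease that trims the stem-loop end, changed by -1.60, Casp8ap2 (FLASH, a factor of 3′ processing) by -1.79 and Cstf2 (CstF-64) by -1.43. The groups did not overlap in any of the 4, which were named for their small adjusted p. Over the list the controls were higher without overlap in 16 of 22 genes, against 24.7% of all tested genes.

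Histone chaperones, which carry histones to DNA, and acetylases showed 16 of 20 genes lower and 1 higher, with a median of -0.90. The shares of all tested genes were 20.9% and 42.4%. Asf1b, the proliferation-linked H3-H4 chaperone, read 15.7, 13.8 and 11.3 FPKM in the controls and 2.71, 1.45 and 2.84 FPKM after irradiation (log2 fold change -2.54 ± 0.28, SE). Nasp, which guards soluble H3-H4, changed by -2.02, Mcm2, a helicase subunit that also binds H3-H4, by -2.02 and Asf1a by -1.49. Ipo4, an importin that carries H3-H4, rose from 5.34, 4.94 and 6.60 FPKM to 10.4, 16.9 and 17.3 FPKM, a log2 fold change of 1.36 ± 0.24 (SE).

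Replication-independent histone variants are also made outside S phase, mostly from polyadenylated mRNAs. Of the 11 tested 7 fell and 2 rose, against 20.9% and 42.4% of all tested genes, with a median of -0.70. H2afx, whose protein is phosphorylated at DNA breaks and whose gene can give both mRNA forms, read 239, 221 and 186 FPKM in the controls and 40.1, 10.1 and 15.0 FPKM after irradiation (log2 fold change -3.54 ± 0.46, SE). H2afv, a close relative of H2A.Z, changed by -1.38. H2afy2 (macroH2A2) and H1f0 (the linker histone of resting cells) rose, by 2.44 and 1.73 on the log2 scale. The groups did not overlap in any of these 4, which were named for their small adjusted p. Of the 11 tested, 7 had all controls higher without overlap and 3 had all irradiated values higher. Over all 14001 tested genes these numbers were 3458 and 6452.

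S phase genes gave 28 of 29 lower and 0 higher, against 20.9% and 42.4% of all tested genes, and a median of -1.93. Pcna, the sliding clamp, read 194, 199 and 164 FPKM in the controls and 41.6, 27.5 and 46.0 FPKM after irradiation, a log2 fold change of -2.30 ± 0.22 (SE). Rfc4, a clamp-loader subunit, changed by -2.29, Uhrf1, which reads newly copied DNA, by -2.92 and Ccne2 (cyclin E2) by -3.61. The exception was Fen1, a flap nuclease. The histone median, -3.97, was below the log2 fold change of each of these 29 genes, the lowest of which was -3.61.

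Markers of cell types also changed: those of double-positive thymocytes mostly fell, as the histone genes did, while those of most other listed types rose. Of 12 markers of double-positive thymocytes 11 fell, with a median of -4.56, and their summed FPKM was 2548 to 2842 in the controls and 123 to 183 after irradiation. Rag1, the recombinase gene that defines immature lymphocytes, read 511, 540 and 592 FPKM in the controls and 1.97, 0.511 and 2.32 FPKM after irradiation. All 8 fibroblast markers rose, with sums between 73.3 and 96.2 FPKM in the controls and between 711 and 779 FPKM after irradiation. Over all tested genes 42.4% rose and 20.9% fell, and both shares moved with the scaling. All 8 macrophage markers rose, with sums of 121 to 160 FPKM before and 849 to 1115 FPKM after. Of 8 endothelial markers 7 rose (sums of 32.9 to 42.0 FPKM before and 50.5 to 125 FPKM after). The exception, Pecam1, made up most of the control sum. It read 27.2, 28.7 and 36.0 FPKM before and 24.9, 41.5 and 35.1 FPKM after. Of 8 markers of thymic epithelium 7 rose (sums of 181 to 249.2 FPKM before and 758 to 1325 FPKM after). Erythroid markers differed by library: their sum was 51.5 to 139 FPKM in the controls and 3.37, 7365 and 1197 FPKM in irradiated replicates 1, 2 and 3, where Hbb-bt and Slc4a1 were at 0 in replicate 1. The part of these shifts in the fall of the histone genes was not tested.

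**Figure D5:**
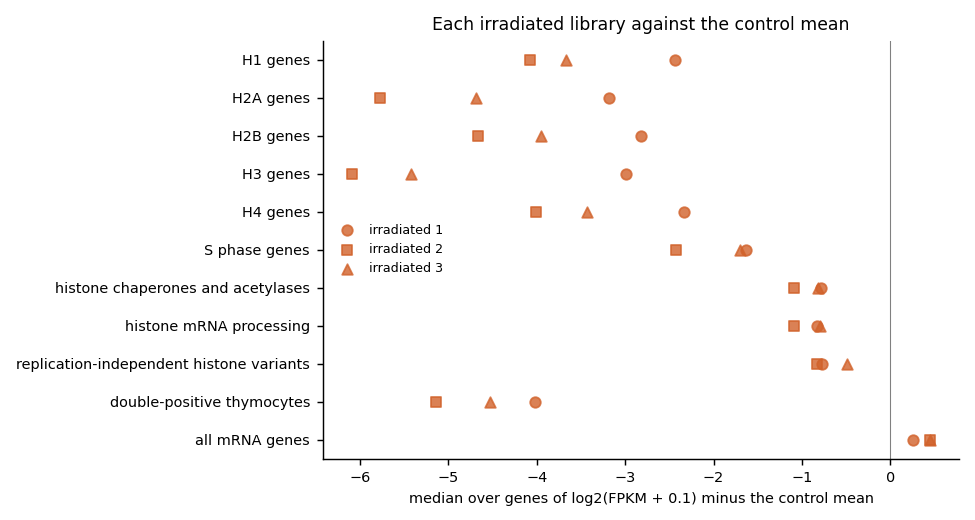
Median over genes of log2(FPKM + 0.1) minus the control mean in each irradiated library, for the histone types, the related lists, the double-positive thymocyte markers and all tested genes. The 5 histone types spread between -6.10 and -2.34, with replicate 1 closest to 0 in each, and all genes stand between 0.26 and 0.45.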

How the data were processed

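The members and gene lists were chosen with earlier results of these data known. Libraries were, by their labels, of polyadenylated RNA from 3 control and 3 irradiated mice, which nothing in the labels ties into pairs. The authors deposited FPKM per transcript, with 1 value per gene, and the sources used here do not give the aligner, the counting method, the treatment of fragments matching several genes or strand use. The tool listed for the authors' comparison columns is DESeq2 1.10.1 (submitters' processing notes). Their log2 fold changes and p-values were used only where the authors' deposited table is named. All 72 histone transcript lines matched GENCODE M21 (GRCm38) in start and end. The smallest FPKM steps gave an estimated 21900000 to 25600000 fragments per library, but only 21.8% to 29.3% of low values came out whole within 0.05, so no count test was run. The number of mice, 3 in each group, and the depth limit the precision.

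Genes averaging at least 0.5 FPKM were tested with limma 3.58.1 (R 4.3.3) on log2(FPKM + 0.1) with an abundance trend, all 6 libraries and group as the only term, and p-values were adjusted by Benjamini-Hochberg with a threshold of 0.05. The code was tested on simulated data. Values are given in full for the 3 most abundant members of each type, all of Hist2, Hist3 and Hist4, and the 2 most reduced of each type, and for lists at most the 4 genes with the smallest adjusted p and any that moved against the list. Further members were named after their values were seen. Alternatives varied the pseudocount, filter, scaling, trend, replicate block and libraries. Correlations of same-numbered libraries were 0.0596, -0.0433 and 0.0516 across genes, so the numbers were not taken as pairs.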

Additional observations from a re-analysis of the deposited data

How the results depend on the processing

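Each of the 65 calls held under all 16 alternatives that tested the gene: of 1055 values 1052 kept their direction and side of the threshold, 0 lost the call and 0 reversed. The other 3 were all Hist1h2be, which gained a call with a replicate block (log2 fold change -2.31, adjusted p 0.0217 in limma), without control replicate 1 (-4.68, 0.032) and without replicate 1 of both groups (-3.21, 0.000153), the last chosen after seeing the data. The median over the histone genes minus that over all genes ran from -4.98 to -3.86. Hist1h1t, near the filter, ranged from -3.35 to -0.81. Quantile normalization gave 4403 genes lower and 3501 higher over the whole table, and median-ratio scaling gave 4558 lower and 4655 higher, against 2920 and 5933; these scalings moved the median of all genes from 0.40 to -0.07 and 0.02. Genes of histone mRNA processing that rose numbered 1 with the replicate block and 2 without replicate 1 of both groups, and from 0 to 3 when 1 library was left out, against 0. Fen1 passed the threshold without irradiated replicate 1 (-1.11) and without replicate 1 of both groups (-1.06). The replicate block gave 66 histone genes lower, against 65. Depth was only estimated, so no limit of detection is given for values near 0.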

Other observations

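The deposited table of noncoding transcripts held 6 transcripts under histone symbols, 5 of them assembled by the authors and all lying in Hist1 on chromosome 13. The most abundant, named Hist1h3f, read 136, 174 and 138 FPKM in the controls and 2.87, 0 and 2.11 FPKM after irradiation. A transcript named Hist1h2bk of 455 bases read 20.01, 11.8 and 34.3 FPKM before and 0, 1.35 and 0 FPKM after. These transcripts were not tested, and their exons may share fragments with the coding genes of the same name.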
